A study of Mus musculus with 6 samples.

Results

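The effect of maturing dendritic cells (DC) with TNF and IL-1 beta was described on 4 of the 6 arrays of the study, the 2 arrays of immature DC and the 2 arrays of mature DC. All cells were grown from bone marrow of C57BL/6 mice with GM-CSF at 20 ng/ml, which turns marrow progenitors into DC, and each stage was grown with the solvent DMSO (0.1%) or with SB202190, an inhibitor of p38 MAP kinases labelled as 1.5 mM (the unit is the labels' and was not checked). The immature DC were the semi-adherent cells taken at day 7, and the mature DC were such cells after 48 h with TNF-a at 10 ng/ml and IL-1b at 10 ng/ml. There was 1 array for each stage and treatment, so the comparison set 2 mature arrays against 2 immature arrays with the treatment as a block. The study had no culture kept for 48 h without the cytokines, so the cytokines and the longer culture cannot be told apart, and the labels do not say whether SB202190 stayed in the medium during the 48 h. Nothing in the labels names the cultures as independent. The p-values measure only how far the differences with DMSO and with SB202190 lie apart, moderated by the spread of other genes. That gap may be technical or an effect of the treatment, and it is no spread between independent cultures.

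Immature DC sample their surroundings by endocytosis and are poor at activating T cells. On contact with inflammatory signals they mature: receptors for TNF and IL-1 release the transcription factor NF-kB from its inhibitors, and the cells then lower uptake, raise costimulatory ligands such as CD40, CD80 and CD86, and carry the chemokine receptor CCR7, which guides them to lymph nodes. NF-kB also drives its own inhibitors, which close the response again.

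Levels are given as the log2 of the normalized probe intensity, so a difference of 1 is a 2-fold difference, and they are compared for each gene between arrays and not between genes. Of 19057 genes with a named probe, 8765 were detected on at least 2 of the 4 arrays (detection p under 0.01) and were tested in limma. The arrays had 14623 to 15328 detected probes of 45281, with the lowest number in mature DC with SB202190, and median intensities before normalization were 142.3 and 130 on the immature arrays and 124.7 and 120.5 on the mature arrays. Arrays of the same stage had correlations across genes of 0.988 (immature) and 0.986 (mature), and arrays of different stages of 0.937 to 0.955.

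Maturation moved a large share of the genes. In mature DC 1293 genes were higher (14.8% of those tested) and 1288 were lower (14.7%) at a limma adjusted p under 0.05, with 3504 genes under 0.05 before adjustment. The median difference over all genes was -0.0042, with quartiles of -0.28 and 0.28 and a median standard error (SE) of 0.15. All 2581 genes past the test went the same way with DMSO and with SB202190, but the test itself fixes this. Its only residual is the gap between the differences with DMSO and with SB202190, so a gene of opposite signs cannot pass at this threshold. Of all genes tested 2097 went opposite ways. At least a 2-fold difference in both treatments was found for 283 higher genes (3.23%) and 337 lower genes (3.84%). The fit has 1 residual degree of freedom, moderated by a prior of 7.72, so each call rests on how far the differences with DMSO and with SB202190 lie apart and on the spread of all other genes. When all 6 arrays of the study, with the 2-day cultures (pre-DC), shared the fit, 1014 genes were higher and 1055 lower. That fit takes the difference between the treatments to be the same at every stage. With an array left out, the stage left with 1 array gets its treatment difference from the other stages, pre-DC included. Leaving 1 array out of that fit gave 257 higher and 347 lower genes without the immature DMSO array, 350 and 467 without the immature SB202190 array, 445 and 556 without the mature DMSO array, and 372 and 434 without the mature SB202190 array.

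**Figure D1:**
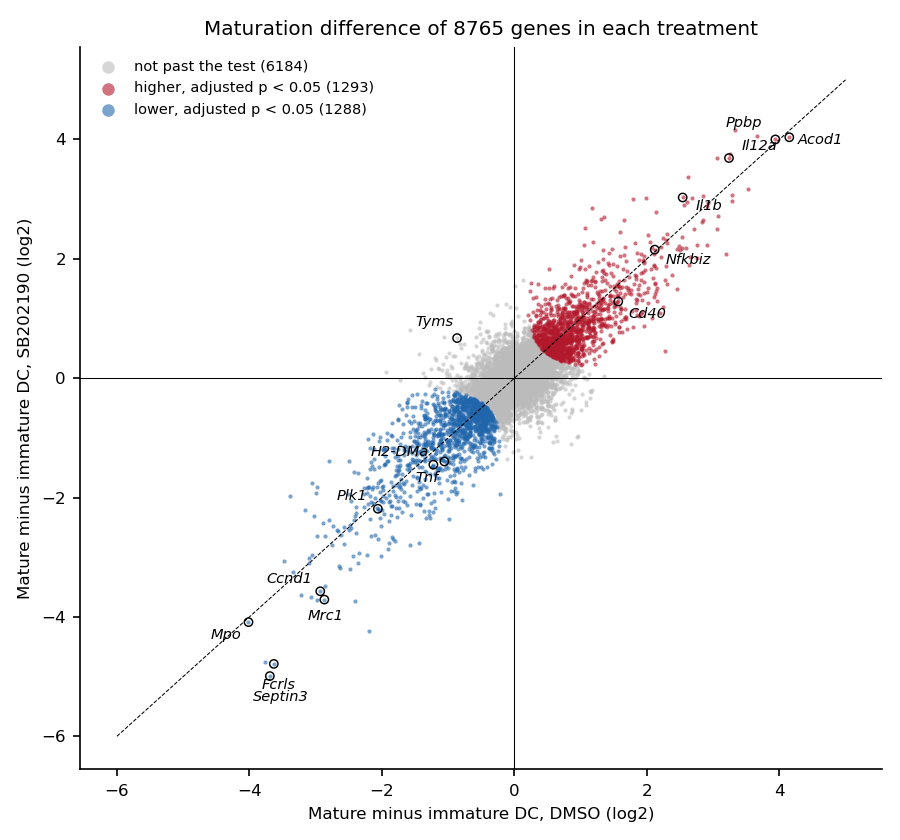
Difference between mature and immature DC (log2) with DMSO on the horizontal axis and with SB202190 on the vertical axis, for the 8765 genes tested; red and blue points passed the limma test as higher (1293) or lower (1288), grey points did not, and the dashed line marks equal differences. Of the genes with the largest differences, some, such as Mpo, lie near the dashed line and others, such as Septin3, lie well off it. The genes of opposite signs, such as Tyms, are all grey, since the test cannot call them.

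The largest rise was that of Acod1, which encodes the enzyme that makes itaconate. Its level was 8.37 and 8.64 on the immature arrays (DMSO and SB202190, an order kept below) and 12.52 and 12.68 on the mature arrays, a difference of 4.09 (SE 0.15, limma adjusted p = 3.49e-06). The groups were far apart and the treatments nearly equal. Ddit4, an inhibitor of mTORC1 induced by stress, rose by 3.86, from 7.12 and 6.35 to 10.78 and 10.40. Inhba, which encodes the activin A subunit, rose by 3.37, Gstm2, a glutathione transferase, by 3.35, and Saa3, an acute phase apolipoprotein, by 3.12. Sdc1, the proteoglycan syndecan-1, rose by 2.95 and Apol7c, a gene of activated DC, by 2.90. Gpr176, an orphan receptor, was not above background on the immature arrays and was at least 5.40-fold higher on the mature arrays (limma adjusted p = 9.04e-06). The remaining 7 of the 15 largest rises were the chemokine genes Ppbp, Cxcl1 and Pf4, the cytokine gene Il12a, the receptor gene Ccrl2 and the enzyme genes Nos2 and Arg1, which are described with their groups.

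The largest fall by the fit was that of Septin3, a cytoskeletal GTPase gene. Its brightest probe was at 8.79 and 9.89 in immature DC and not above background in mature DC, at least 14.2-fold lower (limma adjusted p = 1.38e-05). Another of its probes was above background in mature DC, its 2 other probes had differences of -1.89 and -2.85, and the mean of its probes gave -1.91. The lectin gene Cd209c was at least 13.2-fold lower, Mfsd2a, a lysolipid transporter gene, at least 5.21-fold lower, and Cd207, which encodes langerin, at least 7.46-fold lower (limma adjusted p = 9.35e-06, 8.4e-06 and 3.47e-04). Cd207 was at 7.46 and 9.35 in immature DC, so the treatments lay further apart there than for most genes. Fcrls, an Fc receptor-like scavenger gene, fell by 4.21, from 13.01 and 13.08 to 9.37 and 8.29, and both mature arrays lay below both immature arrays. F2rl2, a protease-activated receptor, fell by 3.35, Emp1, a membrane protein gene, by 3.28 and Klk1b9, a tissue kallikrein gene, by 3.17, although kallikrein genes are near-identical and the probe is uncertain. The members Mpo, Ltf, Itgae, Cd93, Mrc1, Cd209a and Ccnd1 are described with their groups.

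Transcripts of the receptors for the cytokines that were added changed little, and the changes that passed included inhibitors of the pathway. Of 21 tested genes of the TNF and IL-1 receptors and their adaptors, 5 rose and 3 fell, against 14.8% and 14.7% of all genes, and the median difference was -0.06. The TNF receptor gene Tnfrsf1b rose by 0.58 (SE 0.15, limma adjusted p = 0.019), from 9.62 and 9.31 to 10.15 and 9.94, while Tnfrsf1a, the other TNF receptor, was at 8.82 and 8.76 and then 8.51 and 8.52 (difference -0.28, limma adjusted p = 0.204). Il1r1, the signalling receptor for IL-1, was not above background on any of the 4 arrays. Il1r2, a decoy receptor that binds IL-1 without signalling, fell by 0.58 (SE 0.15, limma adjusted p = 0.0187), from 10.33 and 10.55 to 9.75 and 9.97. The 2 largest rises of the list were Irak3, an inhibitor of signalling by IL-1 and Toll-like receptors, at 1.86 and Il1rn, the secreted IL-1 receptor antagonist, at 1.36. The adaptor gene Myd88 fell by 0.62, Traf5 by 0.48, and Map3k7, which encodes the kinase TAK1, rose by 0.66 and Traf6 by 0.45. Another probe of Map3k7 and another probe of Traf6 had the opposite sign. Without 1 array in the 6-array fit, 2 or 3 of the list were higher and 0 were lower.

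Genes of NF-kB and its regulators rose together. Of 21 tested genes 13 rose and 0 fell (61.9% and 0%, against 14.8% and 14.7% of all genes). The median difference was 0.70, with 0.71 for DMSO and 0.70 for SB202190. The count of rises was 12 in the fit of all 6 arrays, and 6, 7, 6 and 7 when the immature DMSO, immature SB202190, mature DMSO and mature SB202190 array was left out of it, with at least 18 of the 21 differences above 0 each time. Several of the genes that rose encode brakes on the pathway. Nfkbiz, an atypical inhibitor protein that also acts as a coactivator, had 7.94 and 7.97 in immature DC and 10.06 and 10.13 in mature DC, a rise of 2.14 (SE 0.15, limma adjusted p = 2.62e-05). Tnfaip3, which encodes the ubiquitin-editing enzyme A20, had 8.29 and 8.69 and then 9.93 and 10.51, a rise of 1.73 (SE 0.15, limma adjusted p = 7.69e-05). Nfkbia, the classical inhibitor, had 11.70 and 11.82 and then 12.75 and 12.97, a rise of 1.10. In each of these genes the lower mature array was above the higher immature array by more than the distance between the treatments. Nfkbie, another inhibitor of the same family, rose by 0.86 and Tnip1, an A20 partner, by 0.70. Of the subunits, Nfkb2 rose by 1.22 and Relb, its partner in the noncanonical pathway, by 0.83, whereas Nfkb1 has no named probe here. Bcl3, which binds the p50 and p52 subunits, rose by 1.43, Ikbke, an IKK-related kinase, by 1.42, and Map3k14, the kinase NIK, by 0.70. Birc2 rose by 0.85, Tank by 0.68 and Map3k8, a kinase upstream of ERK, by 0.62.

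Promoter windows of genes that rose are shown because NF-kB acts through a short site, the kappa B site, and some of these windows hold a match to its consensus. The windows run from 250 bases before to 50 bases after the annotated start, from RefSeq on GRCm38.p6, on the strand of the gene and 5′ to 3′. The kappa B consensus was searched on both strands, and overlapping matches were joined. It was found in the window of 7 of the 10 NF-kB list genes that rose and have a window, and of 4 of the 13 genes with a window among the 15 largest rises (Cxcl1, Sdc1, Ccrl2 and Gpr176). It was in 8.18% of all 27025 windows, in 10% of those of the tested genes, in 12.6% for higher genes and in 9.14% for lower genes. Capitals mark the matches, which are letters in a window and no measured binding.
Cxcl1, chr5:90890995-90891294, plus strand: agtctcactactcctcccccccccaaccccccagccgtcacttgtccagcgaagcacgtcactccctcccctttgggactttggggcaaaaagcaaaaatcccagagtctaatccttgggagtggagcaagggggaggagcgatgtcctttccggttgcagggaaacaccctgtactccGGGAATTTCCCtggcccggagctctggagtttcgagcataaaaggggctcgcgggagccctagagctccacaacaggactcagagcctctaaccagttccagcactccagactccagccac
Ccrl2, chr9:111057469-111057768, minus strand: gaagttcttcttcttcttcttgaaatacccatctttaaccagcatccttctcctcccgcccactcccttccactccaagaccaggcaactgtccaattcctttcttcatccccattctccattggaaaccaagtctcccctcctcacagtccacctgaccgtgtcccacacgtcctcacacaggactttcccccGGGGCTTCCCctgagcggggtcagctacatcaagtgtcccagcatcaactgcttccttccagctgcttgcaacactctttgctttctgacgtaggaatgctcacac
Tnfaip3, chr10:19015361-19015660, minus strand: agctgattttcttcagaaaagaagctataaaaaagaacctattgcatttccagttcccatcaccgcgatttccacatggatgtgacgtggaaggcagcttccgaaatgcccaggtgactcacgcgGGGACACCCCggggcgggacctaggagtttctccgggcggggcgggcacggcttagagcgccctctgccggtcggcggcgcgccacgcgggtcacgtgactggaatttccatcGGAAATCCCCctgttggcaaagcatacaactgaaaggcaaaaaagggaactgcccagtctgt
Nfkbia, chr12:55492598-55492897, minus strand: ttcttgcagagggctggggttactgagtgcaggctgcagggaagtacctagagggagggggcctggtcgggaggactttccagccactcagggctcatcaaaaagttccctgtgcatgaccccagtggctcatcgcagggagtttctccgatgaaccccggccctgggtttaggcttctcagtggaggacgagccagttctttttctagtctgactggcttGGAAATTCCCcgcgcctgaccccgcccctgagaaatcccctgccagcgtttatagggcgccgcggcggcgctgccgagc
In Cxcl1 the match spans positions -71 to -61 from the start, in Ccrl2 -56 to -47 and in Nfkbia -29 to -20, and the matches of Tnfaip3 lie between -125 and -3.

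Of the cytokine genes, IL-1 and the IL-12 subunit p35 rose while TNF and its close relatives fell. Of 18 tested genes 10 rose and 4 fell (55.6% and 22.2%, against 14.8% and 14.7% of all genes), and the median difference was 0.56. Il1b, one of the added cytokines, had 11.41 and 10.89 in immature DC and 13.95 and 13.91 in mature DC, a rise of 2.78 (SE 0.17, limma adjusted p = 1.38e-05), and Il1a, the other IL-1, rose by 2.50, from 8.66 and 7.68 to 10.65 and 10.70. Il12a, the p35 subunit of IL-12 and of IL-35, was not above background in immature DC and had 8.15 and 8.29 in mature DC, at least 6.83-fold higher (limma adjusted p = 8.4e-06). Ebi3, the other subunit of IL-35 and IL-27, rose by 0.60, and Il12b, the p40 subunit, has no named probe here. Il6 was at least 2.27-fold and Il33 at least 2.20-fold higher, since neither was above background in immature DC. The B cell survival factor gene Tnfsf13b rose by 1.20, Il15, which sustains NK and memory T cells, by 0.59, and Mif by 0.54.

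Of the 4 cytokine genes that fell, 3 lie side by side in the TNF locus. Tnf, the other added cytokine, had 8.93 and 8.77 in immature DC and 7.88 and 7.38 in mature DC, a fall of 1.23 on the log2 scale (SE 0.16, limma adjusted p = 6.21e-04). Its neighbours Ltb and Lta, which encode the lymphotoxins, fell by 1.16 and 0.80, and Il18 fell by 0.86. For Tnf and Ltb all mature values lay below all immature values. Without 1 array in the 6-array fit, 5 to 7 cytokine genes were higher and 2 or 3 lower.

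Chemokine genes moved in both directions, with neutrophil attractants of the CXC class among the largest rises and 5 genes of the CC class as the falls. Of 18 tested genes 9 rose and 5 fell (50% and 27.8%, against 14.8% and 14.7% of all genes), and the median difference was 0.76. Cxcl1, a neutrophil attractant, had 7.52 and 6.73 and then 10.86 and 10.89, a rise of 3.75 (SE 0.20, limma adjusted p = 1.09e-05), and its relative Cxcl2 rose by 2.15, from 8.54 and 7.68 to 10.20 and 10.33. Ppbp and Pf4, known best as platelet chemokines, rose by 3.97 and 3.50, with Ppbp at 7.39 and 7.45 in immature DC and 11.33 and 11.45 in mature DC, and Pf4 at 9.67 and 9.21 and then 12.92 and 12.97. The mature arrays lay close together for each of these 4 genes, and every mature value was above every immature value. The membrane-bound chemokine genes Cx3cl1 and Cxcl16 rose by 1.17 and 1.05, and Cxcl14 was at least 1.83-fold higher.

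Of the CC chemokine genes, Ccl22 and Ccl5 rose and Ccl2, Ccl3, Ccl4, Ccl7 and Ccl12 fell. Ccl22, a ligand of CCR4 on T cells, rose by 1.89 (SE 0.15, limma adjusted p = 4.62e-05), from 7.25 and 8.24 to 9.22 and 10.05, and Ccl5 by 1.33, from 12.96 and 13.51 to 14.39 and 14.75. Ccl17, the other CCR4 ligand, was at 13.76 and 13.91 and then 14.07 and 14.56, which did not pass (difference 0.48, limma adjusted p = 0.0525). Ccl4 fell by 1.78, from 11.25 and 11.15 to 9.54 and 9.30, and Ccl3 by 0.83. The monocyte attractants Ccl7, Ccl2 and Ccl12 were at least 2.09-fold, 1.69-fold and 1.54-fold lower, since none was above background in mature DC. Without 1 array in the 6-array fit, 5 to 7 chemokine genes were higher and 2 to 5 lower.

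Of 8 tested chemokine receptor genes 5 rose and 2 fell (62.5% and 25%, against 14.8% and 14.7% of all genes). Fewer rose when any 1 array was left out of the 6-array fit. Ccr7 rose by 1.34 (SE 0.15, limma adjusted p = 2.71e-04), from 10.02 and 10.75 to 11.35 and 12.10, a rise of 1.33 with DMSO and 1.35 with SB202190. Ccr7 did not pass in the 6-array fit (limma adjusted p = 0.068), without the treatment block (0.0526) or with any 1 array left out (0.0924 to 0.342, with differences of 0.92 to 1.76). Ccrl2, a receptor that binds chemerin without signalling, rose by 2.93, Cx3cr1, the receptor for Cx3cl1, by 2.64 and Cxcr4 by 1.27, while Cxcr5, which guides cells to B cell follicles, was at least 2.43-fold higher. Ccr2, which draws monocytes from marrow, fell by 1.68 and Cxcr2, a neutrophil receptor, by 1.42.

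**Figure D2:**
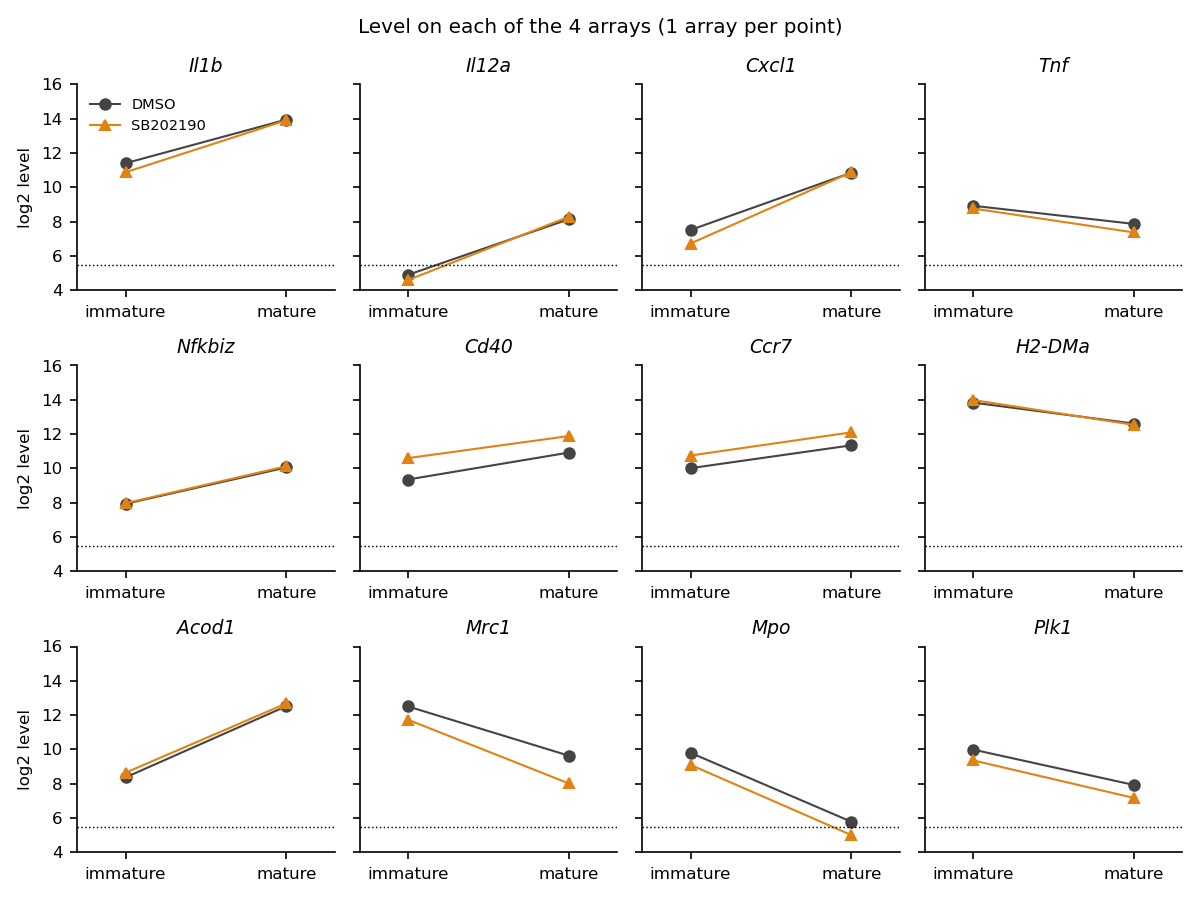
Level (log2 of normalized intensity) of 12 genes in immature and mature DC, with 1 array per point, DMSO as grey circles and SB202190 as orange triangles; the dotted line is the mean over the 4 arrays of the lowest level of a detected probe. The lines of the treatments go the same way in each panel, but they come together at the mature arrays for Cxcl1 and Il1b and draw apart for Mrc1. Il12a starts below the dotted line, and Tnf falls while Il1b rises.

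Most of the costimulatory ligands and other genes of mature DC rose. Their lists were chosen with earlier results of these data known, so they are no independent check of the label of the mature stage. Of 18 tested ligands of costimulation and coinhibition 11 rose and 3 fell (61.1% and 16.7%, against 14.8% and 14.7% of all genes), with a median of 0.74. Cd40 had 9.36 and 10.60 in immature DC and 10.93 and 11.89 in mature DC, a rise of 1.43 (SE 0.16, limma adjusted p = 2.52e-04), and the higher immature array, that with SB202190, lay just below the mature DMSO array. Cd80 rose by 0.77 (SE 0.15, limma adjusted p = 0.00622) and Cd86 by 0.73 (SE 0.15, limma adjusted p = 0.00746), and for Cd86 the immature SB202190 array (12.74) lay above the mature DMSO array (12.66), so the groups overlapped unless compared within a treatment. The larger rises were in Cd200, a ligand that restrains myeloid cells, at 2.40, in Cd70, the ligand of CD27, at 2.02, and in Tnfsf4, the OX40 ligand, at 1.58. The brightest probe of Slamf1 was at least 3.35-fold higher, though its other probe had a difference of 0.16. Tnfsf9, the 4-1BB ligand, rose by 1.18, Pvr by 1.04, Icam1, an adhesion ligand, by 0.75 and Cd274, the inhibitory ligand PD-L1, by 0.63. Tnfsf14, the ligand LIGHT, fell by 1.41, Cd244a by 1.41 and Havcr2, which encodes TIM-3, by 0.82.

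Of 26 tested genes known from mature and migratory DC 20 rose and 0 fell (76.9% and 0%, against 14.8% and 14.7% of all genes), with a median of 0.84. Cd83, a maturation marker, rose by 1.12, from 11.60 and 12.34 to 12.66 and 13.53. Serpinb6b, a protease inhibitor, rose by 2.17, Lad1 by 1.94, Gadd45b by 1.78 and Stat4 by 1.42. Fscn1, the actin-bundling protein fascin of DC dendrites, rose by 0.82, from 11.35 and 12.38 to 12.04 and 13.32, and there too the immature SB202190 array was above the mature DMSO array. Il15ra rose by 1.06, Marcksl1 by 1.05, Samsn1 by 0.77, Il4i1, a secreted amino acid oxidase, by 0.69, Adcy6 by 0.65 and Anxa3 by 0.52. Socs2, a feedback inhibitor, had a difference of 0.13 with DMSO and 0.09 with SB202190 (mean 0.11, limma adjusted p = 0.637). In the 6-array fit 13 of the 26 rose and 7 of the 18 ligands, and leaving out the immature DMSO, immature SB202190, mature DMSO or mature SB202190 array left 3, 7, 6 and 3 of the 26 and 3, 3, 4 and 3 of the 18. At least 22 of the 26 differences stayed above 0 in each case, although that of Fscn1 became -0.13 without the mature SB202190 array and that of Il4i1 -0.11 without the immature DMSO array. Those fits also draw on pre-DC, where Fscn1 was at 7.73 and 5.48. Fscn1 was lower with SB202190 there and higher with SB202190 at both later stages. From immature to mature DC it rose by 0.69 with DMSO and by 0.94 with SB202190.

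Genes of MHC class II presentation, which shows peptides from uptake to helper T cells, kept high levels, and only the peptide exchange genes and their activator fell. Of 15 tested genes 1 rose and 4 fell (6.67% and 26.7%, against 14.8% and 14.7% of all genes), with a median of -0.04. H2-Ab1 had 15.03 and 15.18 in immature DC and 15.06 and 15.07 in mature DC (difference -0.04, SE 0.15, limma adjusted p = 0.86), and H2-Aa had 12.62 and 13.21 and then 12.88 and 13.10 (difference 0.08, limma adjusted p = 0.766). H2-DMa, a chain of the chaperone that loads peptides, fell by 1.34 (SE 0.15, limma adjusted p = 3.25e-04), from 13.84 and 13.99 to 12.62 and 12.54. Its partner genes H2-DMb1 and H2-DMb2 fell by 1.22 and 1.06, and for all 3 genes every mature value lay below every immature value. Ciita, the activator of class II transcription, fell by 0.59 (SE 0.15, limma adjusted p = 0.0177), from 10.71 and 11.36 to 10.17 and 10.72, where the mature SB202190 array was level with the immature DMSO array. Ctss, a protease that trims the invariant chain, rose by 0.51, and Lgmn, another lysosomal protease, had a difference of -0.08. Without 1 array in the 6-array fit, 2 genes were lower without the immature DMSO array and 3 without each other array.

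In the class I pathway, which shows peptides made in the cell, 3 of 18 tested genes rose and 0 fell, shares of 16.7% and 0% against 14.8% and 14.7% of all genes. H2-M2, a nonclassical class I gene, rose by 1.32 (SE 0.22, limma adjusted p = 0.0021), from 12.58 and 13.16 to 14.36 and 14.02, H2-K1 by 0.73 and Tapbpl, a peptide editor, by 0.65. Of this list 1 gene rose in the fit without the immature SB202190 array, and 0 without each other array. Of 24 tested interferon response genes 6 rose and 1 fell (25% and 4.17%, against 14.8% and 14.7% of all genes), with a median of 0.31. The largest rises were those of the antiviral gene Rsad2 at 1.22, the transcription factor gene Irf1 at 1.06 and the GTPase gene Gbp2 at 0.95. Oasl2 rose by 0.75, Oasl1 by 0.85 and Mx2 by 0.50, and Ifi47 fell by 0.55. The interferon calls were sensitive to single arrays, with 0 to 3 rises when 1 array was left out of the 6-array fit, and 0 without the immature DMSO array.

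Receptors for uptake fell more often than they rose. Of 31 tested genes 12 fell and 6 rose (38.7% and 19.4%, against 14.7% and 14.8% of all genes), with a median of -0.11. Mrc1, the mannose receptor, had 12.51 and 11.73 in immature DC and 9.64 and 8.02 in mature DC, a fall of 3.29 on the log2 scale (SE 0.21, limma adjusted p = 1.55e-05), and it fell by 2.87 with DMSO and by 3.71 with SB202190. Cd93, a receptor linked to clearance of dying cells, fell by 3.30, from 10.60 and 9.45 to 7.26 and 6.20. Cd209a, a relative of human DC-SIGN, had 6.90 and 8.36 in immature DC and was not above background in mature DC, at least 4.37-fold lower (limma adjusted p = 7.81e-05). Clec10a, a galactose lectin with a close copy in mice, fell by 2.41, the lectins Clec4a3 and Clec4b1 by 1.23 and 0.77, and Clec7a, the beta-glucan receptor dectin-1, by 0.48. Of the Fc receptors, Fcgrt, which recycles IgG, fell by 1.68 and Fcgr1, the high-affinity IgG receptor, by 0.72. Stab1, a scavenger receptor, fell by 1.18, though both of its other probes had the opposite sign and the mean of its probes gave 0.48, Cd300lf by 0.85 and Axl, which binds dying cells, by 0.55.

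Of the uptake receptors, 6 rose, among them lectins and scavenger receptors as among those that fell. Cd14, a coreceptor for bacterial lipopolysaccharide, had 11.97 and 11.93 and then 14.47 and 14.09, a rise of 2.33 (SE 0.16, limma adjusted p = 2.41e-05). Marco, a scavenger receptor, rose by 1.83, Clec4e and Clec4d, which sense mycobacterial lipids, by 1.61 and 1.23, Ly75, the DC receptor DEC-205, by 1.50 and Scarb2 by 0.69. Without 1 array in the 6-array fit, 6, 7, 8 and 6 uptake genes were lower (immature DMSO, immature SB202190, mature DMSO, mature SB202190 left out) and 3 or 4 were higher. Of 15 tested Toll-like receptor genes and partners 2 rose and 3 fell, shares of 13.3% and 20% against 14.8% and 14.7% of all genes. The rises were Cd14 and the adaptor Ticam2 (1.57), and the falls were Ly86 (-1.23), its partner Cd180 (-1.15) and Tlr4 (-0.64). Of 12 tested complement and coagulation genes 7 fell (58.3%, against 14.7% of all genes) and 2 rose. The falls were C1qa, C1qb and C1qc, the chains of C1q, by 1.59, 1.21 and 1.41, Plau, which encodes urokinase, by 2.66, F13a1 by 1.27, Plaur, the urokinase receptor, by 0.96 and F7 by 0.75. Cfb, a factor of the alternative complement pathway, rose by 2.85, from 6.58 and 5.97 to 9.26 and 8.99, and Serpinb2 by 1.17. The count of falls in this list was 4 without the treatment block, and 2, 3, 5 and 3 when the immature DMSO, immature SB202190, mature DMSO or mature SB202190 array was left out, and C1qb did not pass in any of these last 4 fits (limma adjusted p of 0.0595 to 0.245).

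**Figure D3:**
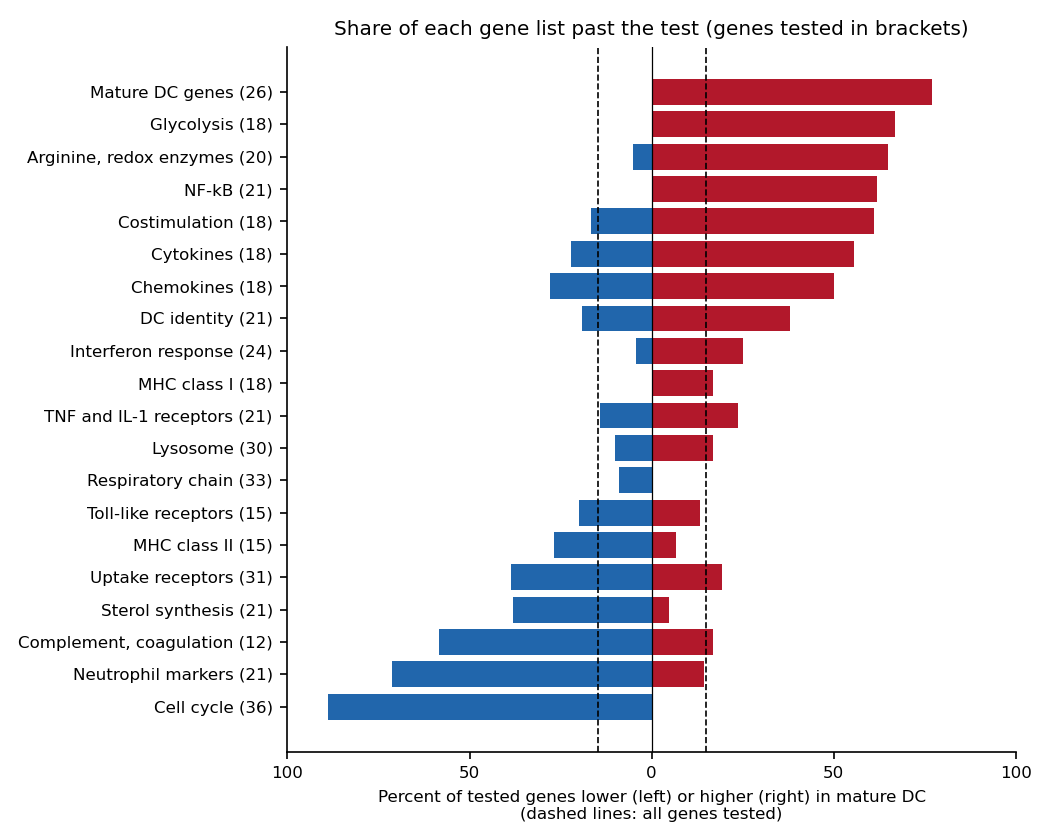
Percent of the tested genes of 20 gene lists that passed the limma test as lower (blue, left) or higher (red, right) in mature DC, with the number of genes tested in brackets; dashed lines mark the shares over all genes tested (14.7% lower, 14.8% higher). Mature DC genes, glycolysis, arginine and redox enzymes, NF-kB and costimulation lie far to the right, cell cycle genes and neutrophil markers far to the left, and lysosome genes lie near the dashed lines on the right.

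Genes of immune metabolism rose. Of 20 tested genes of arginine, tryptophan, itaconate and redox enzymes 13 rose and 1 fell (65% and 5%, against 14.8% and 14.7% of all genes). Their median was 1.03, and fewer were higher when any 1 array was left out of the 6-array fit. Nos2, which makes nitric oxide from arginine, was not above background in immature DC and had 7.89 and 7.56 in mature DC, at least 4.85-fold higher (limma adjusted p = 8.4e-06). Arg1, which breaks arginine down, rose by 2.99, from 11.83 and 10.59 to 14.45 and 13.96, so both arginine enzymes rose in the same cultures. Arg2 rose by 1.34 and Ass1, which remakes arginine, by 1.04. Slc7a11, the cystine transporter, rose by 1.68, Hmox1, haem oxygenase, by 1.61, Sod2, the mitochondrial superoxide dismutase, by 1.40 and Ncf1, an NADPH oxidase subunit, by 1.01. Of the tryptophan enzymes, Ido1 rose by 1.11 and Kynu by 0.87, and Ptges, a prostaglandin E synthase, was at least 1.74-fold higher. Alox5, which starts leukotriene synthesis, fell by 1.09.

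Glycolysis genes rose, while genes of the respiratory chain mostly did not pass the test. Of 18 tested genes of glycolysis and sugar transport 12 rose and 0 fell (66.7% and 0%, against 14.8% and 14.7% of all genes), with a median of 0.61. Slc2a1, the glucose transporter GLUT1, rose by 1.18 (SE 0.15, limma adjusted p = 6.17e-04), from 11.90 and 11.78 to 13.19 and 12.85, Pfkl, a phosphofructokinase, by 1.25, and Slc16a3, a lactate exporter, by 1.08. Slc2a6 rose by 1.03, Hif1a by 0.84, Pgam1 by 0.73, Pdk1, which holds pyruvate back from mitochondria, by 0.68, Hk1 by 0.66 and Pgk1, Tpi1, Aldoa and Gapdh by 0.48 to 0.60. These are small differences, and 3, 3, 4 and 3 of the 18 passed in the 6-array fit when the immature DMSO, immature SB202190, mature DMSO or mature SB202190 array was left out, although at least 15 of the 18 stayed above 0. Of 33 tested respiratory chain genes 0 rose and 3 fell (Ndufa4, Uqcrq and Ndufs8, by 0.88, 0.70 and 0.62), a share of 9.09% that was below that of all genes, and 0 or 1 fell when 1 array was left out. Of 21 tested genes of sterol and fatty acid synthesis 8 fell and 1 rose (38.1% and 4.76%, against 14.7% and 14.8% of all genes). Their median was -0.40 (-0.53 with DMSO and -0.20 with SB202190). Elovl6, which lengthens fatty acids, fell by 1.81, Dhcr7, the last enzyme of cholesterol synthesis, by 1.32, Fdps by 0.83 and Nsdhl by 0.78, and Srebf2, the factor that drives these genes, by 0.57. Cyp51, Mvk and Stard4 fell by 0.54 to 0.58, and Pmvk rose by 0.78. Without 1 array in the 6-array fit, 2 to 4 sterol genes were lower.

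Lysosomal genes were mixed. Of 30 tested genes 5 rose and 3 fell, shares of 16.7% and 10% against 14.8% and 14.7% of all genes. Leaving out the immature DMSO, immature SB202190, mature DMSO or mature SB202190 array left 1, 2, 3 and 3 rises and 0, 1, 2 and 2 falls. Ctsk, the cysteine protease cathepsin K, rose by 1.54 (SE 0.15, limma adjusted p = 1.61e-04), from 9.13 and 7.69 to 10.79 and 9.11, a case where the mature SB202190 array lay below the immature DMSO array, so that the groups overlapped across treatments. Ctsd rose by 0.98, Ctsz by 0.73, Npc2, a cholesterol carrier, by 0.68 and Ctsa by 0.74, though all 3 of its other probes had the opposite sign and the mean of its probes gave -0.10. Ctse fell by 1.02, Ppt1 by 1.01 and Gusb by 0.49.

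Genes of cell division fell. Of 36 tested cell cycle genes 32 fell, a share of 88.9% against 14.7% of all genes, and 0 rose, with a median of -1.58. The count of falls was 22, 29, 23 and 25 when the immature DMSO, immature SB202190, mature DMSO or mature SB202190 array was left out of the 6-array fit. Ccnd1, the cyclin that starts the cycle, had 11.11 and 11.35 in immature DC and 8.17 and 7.78 in mature DC, a fall of 3.25 on the log2 scale (SE 0.18, limma adjusted p = 1.14e-05). Plk1, a mitotic kinase, fell by 2.12, from 9.99 and 9.36 to 7.93 and 7.18, and Aurkb and Aurka, kinases of chromosome segregation, by 2.07 and 1.65. Tk1, which encodes a thymidine kinase, fell by 2.23, Rrm2, a ribonucleotide reductase subunit, by 2.16 and Top2a by 2.02. Kif11, a spindle motor, fell by 2.05 and Cdc20, an activator of mitotic exit, by 2.03, while Cdc6, a licensing factor, was at least 2.46-fold lower. Birc5, Prc1, Kif22, Cdca3 and Nusap1, all of mitosis, fell by 1.80 to 1.98. Cdk1, the mitotic kinase, fell by 1.51, and the transcription factor gene Foxm1 by 1.59.

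The fall was larger with DMSO, with a median of -1.85, than with SB202190, with -1.19, a difference that was not tested. The 4 genes that did not pass, Lig1, Tyms, Mcm6 and Ccne2, take part in DNA replication or its start, and Lig1, Mcm6 and Ccne2 are named here after their values were seen. Tyms, which makes thymidylate, was at 9.48 and 8.62 with DMSO, a difference of -0.87, and at 8.45 and 9.12 with SB202190, a difference of 0.67. Mcm6, a subunit of the replicative helicase, had differences of -1.08 and 0.24. Its sister subunits Mcm2, Mcm3, Mcm4, Mcm5 and Mcm7 fell by 0.64 to 1.57.

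Promoter windows of cell cycle genes that fell are shown because many mitotic genes carry the CHR, a short element near the start through which they are switched off in resting cells. The motif TTTGAA was searched on both strands in windows from 250 bases before to 50 bases after the start. It was found in 15 of the 26 windows of the list's falling genes (57.7%), in 18.1% of all 27025 windows, in 12.1% of those of the tested genes, in 18.1% of those of lower genes and in 11.1% of those of higher genes. A match of 6 letters is common and is no measured binding. Capitals mark the matches in the windows below, from RefSeq on GRCm38.p6, on the gene's strand and 5′ to 3′.
Cdc20, chr4:118437294-118437593, minus strand: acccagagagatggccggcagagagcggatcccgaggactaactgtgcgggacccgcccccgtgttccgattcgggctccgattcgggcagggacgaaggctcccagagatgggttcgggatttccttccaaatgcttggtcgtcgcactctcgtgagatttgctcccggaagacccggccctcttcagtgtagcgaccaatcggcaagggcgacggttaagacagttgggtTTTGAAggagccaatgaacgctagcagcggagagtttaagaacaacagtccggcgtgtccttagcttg
Kif11, chr19:37376132-37376431, plus strand: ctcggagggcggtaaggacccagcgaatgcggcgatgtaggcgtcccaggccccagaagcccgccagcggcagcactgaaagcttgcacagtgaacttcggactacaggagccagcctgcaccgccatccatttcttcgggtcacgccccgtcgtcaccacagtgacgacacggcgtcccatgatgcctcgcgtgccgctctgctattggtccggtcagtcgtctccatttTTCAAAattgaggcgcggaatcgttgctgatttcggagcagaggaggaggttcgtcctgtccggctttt
Plk1, chr7:122159185-122159484, plus strand: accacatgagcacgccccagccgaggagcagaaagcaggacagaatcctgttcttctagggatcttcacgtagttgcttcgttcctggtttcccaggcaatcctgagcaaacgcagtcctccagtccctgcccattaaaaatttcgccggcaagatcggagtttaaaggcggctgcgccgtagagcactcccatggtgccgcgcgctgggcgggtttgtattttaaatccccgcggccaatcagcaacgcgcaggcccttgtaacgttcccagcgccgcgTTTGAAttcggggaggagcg
The match spans positions -18 to -13 in Cdc20, -19 to -14 in Kif11 and 31 to 36 in Plk1.

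**Figure D4:**
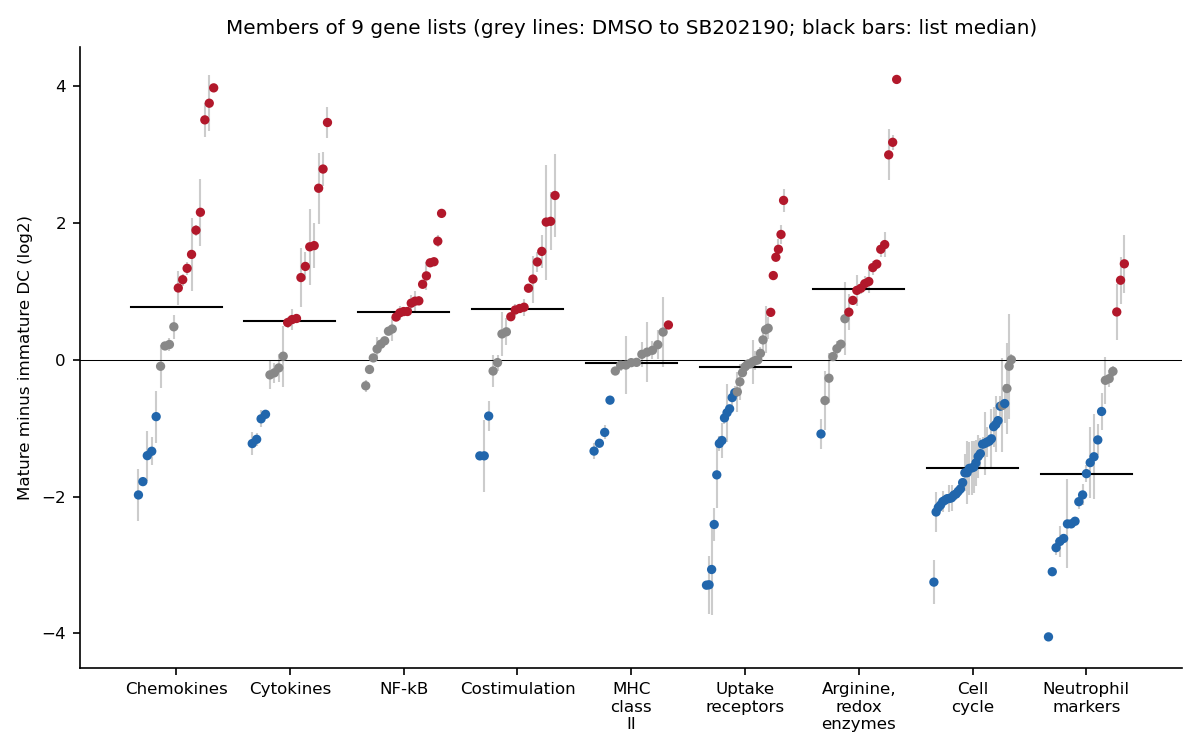
Difference between mature and immature DC (log2) of each tested member of 9 gene lists, ordered within a list; red and blue points passed the limma test, grey points did not, the grey lines run from the DMSO to the SB202190 difference and black bars are list medians. The NF-kB members have short grey lines and a median of 0.70, and chemokines and cytokines have called members above and below 0. The cell cycle members lie below or at 0 with longer lines at their upper end.

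Genes that mark DC changed in both directions. Of 24 genes of DC identity, Flt3, Cd24a and Xcr1 were not above background on any of the 4 arrays, and 21 were detected on each immature array and 20 on each mature array. Of 21 tested 8 rose and 4 fell (38.1% and 19%, against 14.8% and 14.7% of all genes), with a median of 0.37. Itgax, which encodes CD11c, was at 6.43 and 6.63 and then 6.69 and 6.87 (difference 0.25, limma adjusted p = 0.254), and Zbtb46, a transcription factor of classical DC, at 7.22 and 7.99 and then 7.60 and 7.87 (difference 0.13, limma adjusted p = 0.619). Of the interferon regulatory factors, Irf8 rose by 1.04, from 9.31 and 10.11 to 10.20 and 11.31, and Irf4 was at 10.80 and 11.27 and then 11.08 and 11.76 (difference 0.38, limma adjusted p = 0.0945). Cd72 rose by 1.49, Clec9a, a receptor for dead cells on cross-presenting DC, by 1.36 (2.27 with DMSO and 0.46 with SB202190), Kit by 1.21, Cd1d1 by 0.67, Id2 by 0.66 and Batf3 by 0.59. The larger falls on this list were those of Itgae, by 3.36, and of Cd209a, at least 4.37-fold lower, while Mycl fell by 0.72 and Dpp4 by 0.87. Leaving 1 array out of the 6-array fit left 0 rises without the immature DMSO array and 1 without each other array.

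The largest falls among adhesion genes were those of Itgae, Cdh1 and Itgb7. Itgae, which encodes CD103, fell by 3.36, from 8.58 and 9.82 to 5.52 and 6.16, its partner Itgb7 by 2.33 and their ligand Cdh1, E-cadherin, by 2.72 (limma adjusted p = 1.09e-05, 8.69e-05 and 2.77e-05). For all 3 genes every mature value lay below every immature value. Icam2 fell by 1.03 and Alcam by 0.90, Itga5 rose by 0.84, Cd82 by 0.46, and Itga4 was at least 2.60-fold higher, so 4 of 22 tested genes rose and 5 fell (18.2% and 22.7%, against 14.8% and 14.7% of all genes). With 1 array left out 1 or 2 adhesion genes rose and 3 or 4 fell, with 1 rise and 3 falls without the immature DMSO or the mature SB202190 array. Of 21 tested JAK, STAT, SOCS and IRF genes 4 rose and 2 fell (19% and 9.52%, against 14.8% and 14.7% of all genes). Among them were Stat3 (0.56), Cish (-0.95) and Socs6 (-1.55), while Socs3 had a difference of 0.32 (limma adjusted p = 0.191). In this list 0 genes rose without the immature DMSO array and 1 without each other array. Of 19 tested survival genes 3 rose and 2 fell (15.8% and 10.5%, near the shares of all genes), with Mcl1 at 0.52, Bmf at 0.66, Bcl2 at -0.90 and Bid at -1.19 (-0.46 with the mean of all probes). The survival genes had 0 rises without the treatment block and with any 1 array left out.

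Markers of other marrow cells also moved. In RNA from mixed cells, fewer cells of a type and less RNA per cell cannot be told apart, and this holds for every gene above. Of 21 tested neutrophil and granule genes 15 fell and 3 rose (71.4% and 14.3%, against 14.7% and 14.8% of all genes). Their median was -1.67, and fewer fell when any 1 array was left out of the 6-array fit. Mpo, the myeloperoxidase of primary granules, had 9.80 and 9.10 in immature DC and 5.79 and 5.01 in mature DC, a fall of 4.05 on the log2 scale (SE 0.15, limma adjusted p = 3.49e-06), after 14.93 and 14.87 in the pre-DC cultures. The mature SB202190 value was not detected, and the 2 other probes of Mpo fell by 1.18 and 3.17. Lta, Cxcr2, Dhcr7, Rrm2 and Bcl2 were likewise detected on 1 of the 2 mature arrays, and Marco, Lad1, Oasl1 and Map3k7 on 1 of the 2 immature arrays. Ltf, the lactoferrin of secondary granules, fell by 3.10, from 12.78 and 12.59 to 9.68 and 9.49. Elane, Prtn3, Ngp, Camp and Cd177 fell by 2.36 to 2.66, Ctsg was at least 5.07-fold lower, and S100a8 and S100a9 fell by 1.17 and 1.67. Mmp9, Itgb2l and Lcn2 rose, by 1.40, 1.16 and 0.70. The summed intensity of the 23 neutrophil markers on the array was 78137 and 58185 in immature DC and 31834 and 34214 in mature DC, against 345520 and 325522 in pre-DC.

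Eosinophil and mast cell genes fell too. Of 6 tested eosinophil genes 4 fell (66.7%, against 14.7% of all genes), and 1 fell without the treatment block. The ribonuclease genes Ear3, Ear10 and Rnase2a had differences of -2.26, -2.39 and -2.68. These genes are near-identical and their probes uncertain, and the defining genes Siglecf, Il5ra and Ccr3 were not above background on any of the 4 arrays. The eosinophil sum was 24853 and 15569 and then 8815 and 5634. Of 6 tested mast cell and basophil genes 4 fell (66.7%), among them Hdc by 1.97 and Prss34 by 1.76, and 1 rose, Kit by 1.21. With the mature DMSO array left out 3 fell, and 2 with each other array left out. Of this list 6 of 13, with Ms4a2 and Tpsb2, were not above background. The sum of the 17 macrophage markers was 117482 and 116998 and then 112896 and 101960, with Csf1r at 11.76 and 11.93 and then 12.48 and 12.18. Of 15 tested macrophage markers 6 fell and 1 rose (40% and 6.67%, against 14.7% and 14.8% of all genes). Fewer fell when any 1 array was left out, and of those that fell Mrc1 and the C1q genes are given above. Of the 10 B cell markers 6, of the 11 T cell markers 8 and of the 10 erythroid markers 7 were not above background on any of the 4 arrays. The part of these marker changes in the falls of the cell cycle, uptake, complement and CC chemokine genes was not tested.

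**Figure D5:**
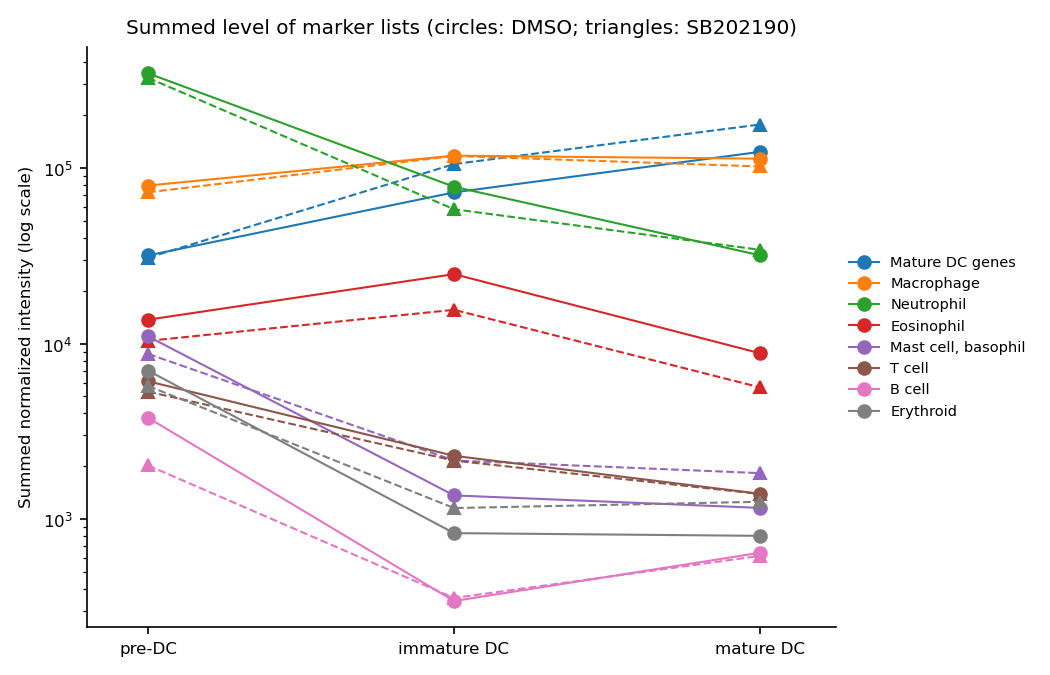
Summed normalized intensity (log scale) of the markers of 8 lists in pre-DC, immature and mature DC, with circles and solid lines for DMSO and triangles and dashed lines for SB202190, 1 array per point. From immature to mature DC the sum of mature DC genes goes from 72595 and 105185 to 123469 and 176744, the neutrophil and eosinophil sums fall, and the macrophage sum stays between 101960 and 117482.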

How the data were processed

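RNA of 6 samples of cultured bone marrow cells was hybridised to 6 single-colour Illumina arrays. The authors deposited an intensity for each of 45281 probes, not normalized, with a detection p-value, per the file headers. The authors' processed intensities served as an alternative, and the scanner software was not given in the sources used here. Intensities were background-corrected by normexp from the detection p-values (offset 16) and quantile normalized over the 6 arrays, and log2 was taken from the deposited scale, with limma 3.58.1 in R 4.3.3. The platform annotation gave 34885 probes 1 gene symbol and 18 several, and 10378 are unnamed here. The brightest probe stood for each gene.

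Mature and immature DC were compared on 4 arrays with treatment as a block, for genes with a detection p under 0.01 on at least 2 arrays, with Benjamini-Hochberg adjustment and a threshold of 0.05. Within a treatment there is no test. For a gene not above background on either array of a stage, "at least N-fold" sets the brighter mean against the lowest detected signal, or the probe's own where higher. Named genes were the 15 largest changes in each direction, the called members of each list with those of the 6 largest differences, a set of maturation genes and 5 genes of opposite sign. Lists and genes were chosen with earlier results of these data known. The fit was run on simulated data with the same spread for every gene and the same stage difference in both treatments. The measured data differ in both, so that run does not give the error rate here. Alternatives changed background, scaling, filter, probe choice and model. The number of arrays limits the precision.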

Additional observations from a re-analysis of the deposited data

Results flagged for a closer look

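For 5 genes detected on all 4 arrays the difference between mature and immature DC had opposite signs with DMSO and with SB202190. None of them passed the limma test over both treatments, which a gene of opposite signs cannot pass at this threshold. The difference between the treatments was not tested, since each has 1 array a stage. Tyms, which makes thymidylate for DNA, had -0.87 with DMSO and 0.67 with SB202190, so that the second exceeded the first by 1.54. Alyref2, a relative of an mRNA export factor, had -0.82 and 0.57, an excess of 1.39. The order was turned for Atg9b, an autophagy gene, with 0.64 and -1.04 (SB202190 minus DMSO of -1.69), for the cystatin gene Cst11, with 0.82 and -0.64 (-1.46), and for the NK cell receptor gene Klrb1b, with 0.85 and -0.58 (-1.43). They were taken from the 2097 genes of opposite sign by the rule for named genes.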

How the results depend on the processing

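The counts of 1293 higher and 1288 lower genes stayed within 1.5 times of these values in 10 alternatives (939 to 1532 higher, 944 to 1617 lower). Without the treatment block 572 genes were higher and 657 lower. Leaving out 1 array of the 6-array fit gave 257 to 445 higher and 347 to 556 lower genes; that fit assumes the lone array of a stage to vary like the others. The cause was not tested. Of values for 287 tested genes named in the text, 206 of 3123 under the other alternatives lost the call, as did 492 of 1148 with an array left out. Signs turned for Ctsa (-0.10), Stab1 (0.48) and Zbtb46 (-0.024) with the mean of all probes and for H2-Ab1 (0.016) with 75th percentile scaling. With each array left out, signs turned within the ranges of Fscn1 (-0.13 to 1.76), Il4i1 (-0.11 to 1.49), Zbtb46 (-0.19 to 0.45), H2-Aa (-0.080 to 0.23), H2-Ab1 (-0.20 to 0.12), Socs2 (-0.042 to 0.26), Lgmn (-0.21 to 0.047), Lig1 (-0.14 to 0.14), Mcm6 (-0.96 to 0.12), Tyms (-0.69 to 0.49), Alyref2 (-0.77 to 0.51), Atg9b (-1.09 to 0.69), Cst11 (-0.57 to 0.75) and Klrb1b (-0.53 to 0.80). Genes near background keep only a bound, so depth of signal limits their folds. No paired analysis by replicate number was possible because each stage and treatment has 1 array.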

Other observations

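Genes of lipid handling moved in both directions. Of 21 tested genes 3 rose and 5 fell (14.3% and 23.8%, against 14.8% and 14.7% of all genes), and the median was 0.0038. Apoc2, a cofactor of lipoprotein lipase, rose by 1.65 (SE 0.15, limma adjusted p = 8.82e-05), from 8.66 and 8.04 with DMSO and SB202190 in immature DC to 10.31 and 9.69 in mature DC. Vldlr, a lipoprotein receptor, was at least 2.33-fold higher, and Pltp, a phospholipid carrier, rose by 0.88. The cholesterol exporter Abcg1 fell by 1.10, from 9.81 and 9.87 to 8.75 and 8.74, and the nuclear receptor genes Pparg and Rxra by 0.72 and 0.70. Apoe fell by 1.09, with differences of -0.22 for DMSO and -1.95 for SB202190, so most of its fall came from the SB202190 arrays. The falls in this list numbered 1 without the immature DMSO, the immature SB202190 or the mature SB202190 array.

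Of 35 tested actin and motility genes 4 rose and 4 fell (11.4% each), which is below the shares of all genes, and 0 or 1 rose and 1 or 2 fell when 1 array was left out of the 6-array fit. The rises were Marcksl1 and Fscn1, given above, Rhoc (0.79) and Vasp (0.59), and the falls were Cfl1, which severs actin filaments (-1.03), Coro1c (-0.72), Dock2 (-0.68) and Coro1a (-0.49). Of 7 tested monocyte markers 4 rose and 2 fell (57.1% and 28.6%, against 14.8% and 14.7% of all genes). Cx3cr1 and Cd14 are given above, and Ly6c1 rose by 1.13 and Fn1, fibronectin, by 1.03, from 12.09 and 11.16 to 13.03 and 12.28. Among stromal markers Dcn, decorin, was at least 2.30-fold higher and Vcam1 rose by 1.20, while the collagen genes Col1a1, Col1a2 and Col3a1 were not above background on any of the 4 arrays.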
